A study of Mus musculus with 34 samples.

Results

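The genes described here code for neural transcription factors of the basic helix-loop-helix (bHLH) family: Neurog2, Atoh1, Ptf1a, Olig2, Olig3, Nhlh1, Nhlh2 and Tal2. These 8 of the 15687 genes that could be placed in the deposited peak lists were chosen by symbol, with earlier results of these data known. The position of a gene is the point on which its peaks agree when the authors' distance to the nearest gene is added to or taken from each summit, and it is called the start here. All peaks whose midpoint lay within 100 kb of that point were counted. The series mapped coactivators and histone marks by chromatin immunoprecipitation with sequencing (ChIP-seq) in mouse tissue and in embryonic stem cells (ESC). A FLAG epitope on the endogenous protein was precipitated for SMARCA4, which drives the BAF (SWI/SNF) chromatin remodeller, in ESC, heart, limb and face and in the nervous system (neural tube, hindbrain, midbrain and forebrain). It was also used for SMARCC2, another BAF subunit, in face and hindbrain, for the acetyltransferase EP300 in face and ESC, and for the nuclear receptor coactivators NCOA1 and NCOA2 in hindbrain. The FLAG embryos were knock-ins on a mixed 129/C57BL/6 background, while H3K4me1, H3K4me3 and H3K27me3 of limb and forebrain and H3K27ac of limb came from CD1 embryos.

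All embryos were of day 11.5 and both sexes were pooled, about 150 or 300 embryos to a sample. The ESC were a culture from a knock-in line. Of 34 samples, 30 lists were used, namely 14 FLAG lists, 6 controls of FLAG samples, 7 histone lists and 3 histone inputs, while 4 SMARCA4 controls (neural tube, limb, forebrain and heart) were not analysed here. Each condition is 1 library of pooled whole tissue, so there was no replicate check, no test was made, and every difference below is one between these lists. A peak in a few cells of the tissue cannot be told apart from a weak peak in many. The tissue field of the SMARCA4 hindbrain sample reads forebrain, against its title. The extraction text of the histone samples names heart and hindbrain, while their titles, source and tissue fields give limb or forebrain, which were used here. Every FLAG sample has the SMARCA4 knock-in as its genotype, whichever protein was tagged.

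The bHLH proteins bind the E-box of DNA as dimers. The proneural members pair with the widely expressed E proteins Tcf3, Tcf4 and Tcf12 and drive progenitors out of the cell cycle towards a neuronal fate, while HES and HEY repressors, which act downstream of Notch, and ID proteins, which take up E proteins, hold them back. Each of the genes is active in a narrow band or a short stage of the nervous system. In tissues where they are silent, such genes are a textbook target of Polycomb, whose mark is H3K27me3. H3K4me3 marks active or poised starts, H3K4me1 marks enhancers and the flanks of starts, and H3K27ac marks active elements.

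The promoters are shown because the genes fell into 2 kinds in sequence. These matched a difference over the start itself in the limb H3K4me3 list, given further on. The sequences are RefSeq's on GRCm38.p6, from 250 bases before to 50 bases after the RefSeq start, 5′ to 3′ on the gene's strand, with each CG dinucleotide in capitals. All 8 genes had an entry, and 5 promoters are printed. No mm9 genome was used, so whether the RefSeq start is the same base as the mm9 point was not checked.

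Atoh1, chr6:64728875-64729174, plus strand: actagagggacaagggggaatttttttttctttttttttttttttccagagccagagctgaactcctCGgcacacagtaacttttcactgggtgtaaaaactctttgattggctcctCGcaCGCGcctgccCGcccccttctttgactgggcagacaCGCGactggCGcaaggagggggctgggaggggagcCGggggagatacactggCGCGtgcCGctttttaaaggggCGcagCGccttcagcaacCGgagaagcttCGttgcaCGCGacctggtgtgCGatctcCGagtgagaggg
Olig2, chr16:91225300-91225599, plus strand: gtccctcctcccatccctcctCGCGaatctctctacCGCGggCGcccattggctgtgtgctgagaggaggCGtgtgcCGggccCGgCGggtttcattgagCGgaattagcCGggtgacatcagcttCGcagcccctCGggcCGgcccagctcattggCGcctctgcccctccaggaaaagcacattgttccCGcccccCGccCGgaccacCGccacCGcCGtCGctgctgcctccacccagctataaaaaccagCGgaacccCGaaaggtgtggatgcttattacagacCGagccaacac
Olig3, chr10:19356289-19356588, plus strand: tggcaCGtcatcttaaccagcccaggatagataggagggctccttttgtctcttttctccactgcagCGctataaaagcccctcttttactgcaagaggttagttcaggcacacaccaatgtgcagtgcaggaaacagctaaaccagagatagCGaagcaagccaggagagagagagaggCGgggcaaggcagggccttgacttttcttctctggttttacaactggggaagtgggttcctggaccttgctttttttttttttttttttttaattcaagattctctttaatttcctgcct
Nhlh1, chr1:172057547-172057846, minus strand: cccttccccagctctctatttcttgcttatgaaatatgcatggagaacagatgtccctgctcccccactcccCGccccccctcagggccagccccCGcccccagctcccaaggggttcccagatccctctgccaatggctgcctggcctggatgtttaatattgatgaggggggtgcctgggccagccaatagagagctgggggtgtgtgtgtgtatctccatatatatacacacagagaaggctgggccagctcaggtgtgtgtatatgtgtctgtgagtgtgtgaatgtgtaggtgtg
Nhlh2, chr3:102009895-102010194, plus strand: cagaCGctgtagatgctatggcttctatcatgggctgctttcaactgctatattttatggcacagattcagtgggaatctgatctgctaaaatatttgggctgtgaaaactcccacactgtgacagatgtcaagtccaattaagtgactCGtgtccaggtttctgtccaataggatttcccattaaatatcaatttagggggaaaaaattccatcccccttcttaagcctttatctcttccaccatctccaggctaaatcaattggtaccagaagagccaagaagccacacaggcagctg

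Olig3 held 4 CG dinucleotides in its 300 bases and Nhlh1 and Nhlh2 held 2 each. The promoters of the other genes were richer, with 10 in Neurog2, 16 in Tal2, 20 in Atoh1, 23 in Ptf1a and 25 in Olig2. The median over 27025 promoters of the RefSeq table was 7, so the first 3 genes lay below it and the other 5 above it. The E-box CANNTG, whose letters read the same on both strands, occurred 4 times in the Nhlh2 promoter, 2 times in that of Nhlh1 and 1 time in those of Olig3 and Tal2. It was not found in these windows of Neurog2, Atoh1, Ptf1a or Olig2. Of all promoters of this length, 72.1% held at least 1 E-box and 6.52% held 4 or more.

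The lists differ in how many tags stand behind a peak, and library depth is unknown. In the 10 FLAG tables the median was 7 to 91 tags a peak, and near the 8 genes it was 6 in EP300 ESC, 8.5 in SMARCA4 ESC and 77.5 in SMARCC2 face. The lists of SMARCA4 in face, forebrain, limb and neural tube give positions and a rank only. By the authors, the false discovery rate of SMARCA4 midbrain peaks had a median of 100% and that of EP300 face peaks 56.4%. For NCOA1 hindbrain peaks the median was 18.2%, and 0.0% of them had a rate of 5% or less. The other lists with a rate had medians of 0.04 to 1.8%. The markers of each tissue had 1.48 to 4.7 times as many SMARCA4 peaks per gene in their own tissue as all genes had. Hindbrain was the exception, with a ratio of 0.804. Ratios of the same markers in other tissues and in controls were not taken. The comparison therefore cannot tell a right label from a swapped one. Peaks in the SMARCA4 hindbrain list stood near 3 of 4 hindbrain markers, in a list that reached 58.9% of all genes. Markers of endothelium, which the embryonic tissues hold, had a peak near at least 1 of 4 genes in 13 of the 14 FLAG lists. They had from 0 peaks in midbrain to 27 in SMARCA4 face. The FLAG lists reached 16.4 to 98.0% of all genes, so these counts are not read as an endothelial signal. The part of endothelium in the results was not tested.

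The FLAG lists held 153 peaks within 100 kb of the 8 starts. By gene, Atoh1 had 6 of them, Olig3 11, Tal2 12, Ptf1a 18, Olig2 18, Neurog2 22, Nhlh2 30 and Nhlh1 36. Without the SMARCA4 face list, Atoh1 had 2, Olig3 7 and Olig2 9, and the counts of the other 5 genes fell by less than 1.5 times. The median of 18 peaks lay close to the median of 20 over all placed genes, so the genes as a group were not richer in peaks than other genes. Atoh1 and Olig3, with the fewest peaks, had no other placed gene within 100 kb, while Nhlh1 had 4.

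Neural tube and face were the tissues in which SMARCA4 reached all 8 genes, but these lists reached most genes of the genome too. In neural tube SMARCA4 had 8 peaks near Nhlh2, 6 near Nhlh1, 4 near Neurog2, 3 near Olig3, 2 near Atoh1, 2 near Ptf1a and 1 each near Olig2 and Tal2, and 89.9% of all genes had at least 1. In face it had 3 peaks near Tal2, 4 near Atoh1 and Olig3, 5 near Ptf1a and Nhlh2, 7 near Neurog2 and Nhlh1 and 9 near Olig2, in a list that reached 98.0% of all genes. Forebrain SMARCA4 was near 5 of 8 genes, with 4 peaks at Olig2, 4 at Nhlh1, 3 at Neurog2 and 1 each at Ptf1a and Nhlh2, against 71.4% of all genes. The forebrain list thus held no peak near Atoh1, Olig3 or Tal2.

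In hindbrain, SMARCA4 had peaks near 1 of 8 genes, 3 of them at Nhlh1, whereas 58.9% of all genes had a peak. Among the 12654 placed genes with no more than 4 other placed genes in the same window, 55.0% had one. The midbrain list was near 3 of 8 genes, with 2 peaks at Nhlh1 and 1 each at Neurog2 and Tal2, against 19.6% of all genes. Outside the nervous system, limb SMARCA4 was near 3 of 8 genes (63.0% of all genes), with 2 peaks at Nhlh1 and 1 each at Ptf1a and Nhlh2. Heart SMARCA4 was near 5 of 8 (74.2%), with 4 peaks at Nhlh2, 2 at Nhlh1 and 1 each at Ptf1a, Olig2 and Tal2. ESC SMARCA4 was near 5 of 8 (61.2%), with 3 peaks each at Ptf1a and Olig3, 2 at Olig2 and 1 each at Neurog2 and Nhlh2.

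In hindbrain, the other tagged proteins had 4 peaks near these genes. NCOA1 had 1 peak each near Nhlh1 and Nhlh2, so 2 of 8 genes against 20.2% of all genes, and SMARCC2 had 1 peak, near Nhlh2, against 16.4% of all genes, both shares near the background. NCOA2 had 1 peak, also near Nhlh2, although 52.8% of all genes had one. In face, SMARCC2 was near 6 of 8 genes (74.2%), with 4 peaks at Nhlh2, 3 at Nhlh1, 2 at Tal2 and 1 each at Neurog2, Ptf1a and Olig2. EP300 in face was near 2 of 8 genes (52.4%), with 3 peaks at Nhlh1 and 1 at Nhlh2. In ESC, EP300 was near 6 of 8 genes (82.8%), with 5 peaks at Neurog2, 4 each at Ptf1a and Tal2, 3 at Nhlh1, 2 at Nhlh2 and 1 at Olig3.

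**Figure D1:**
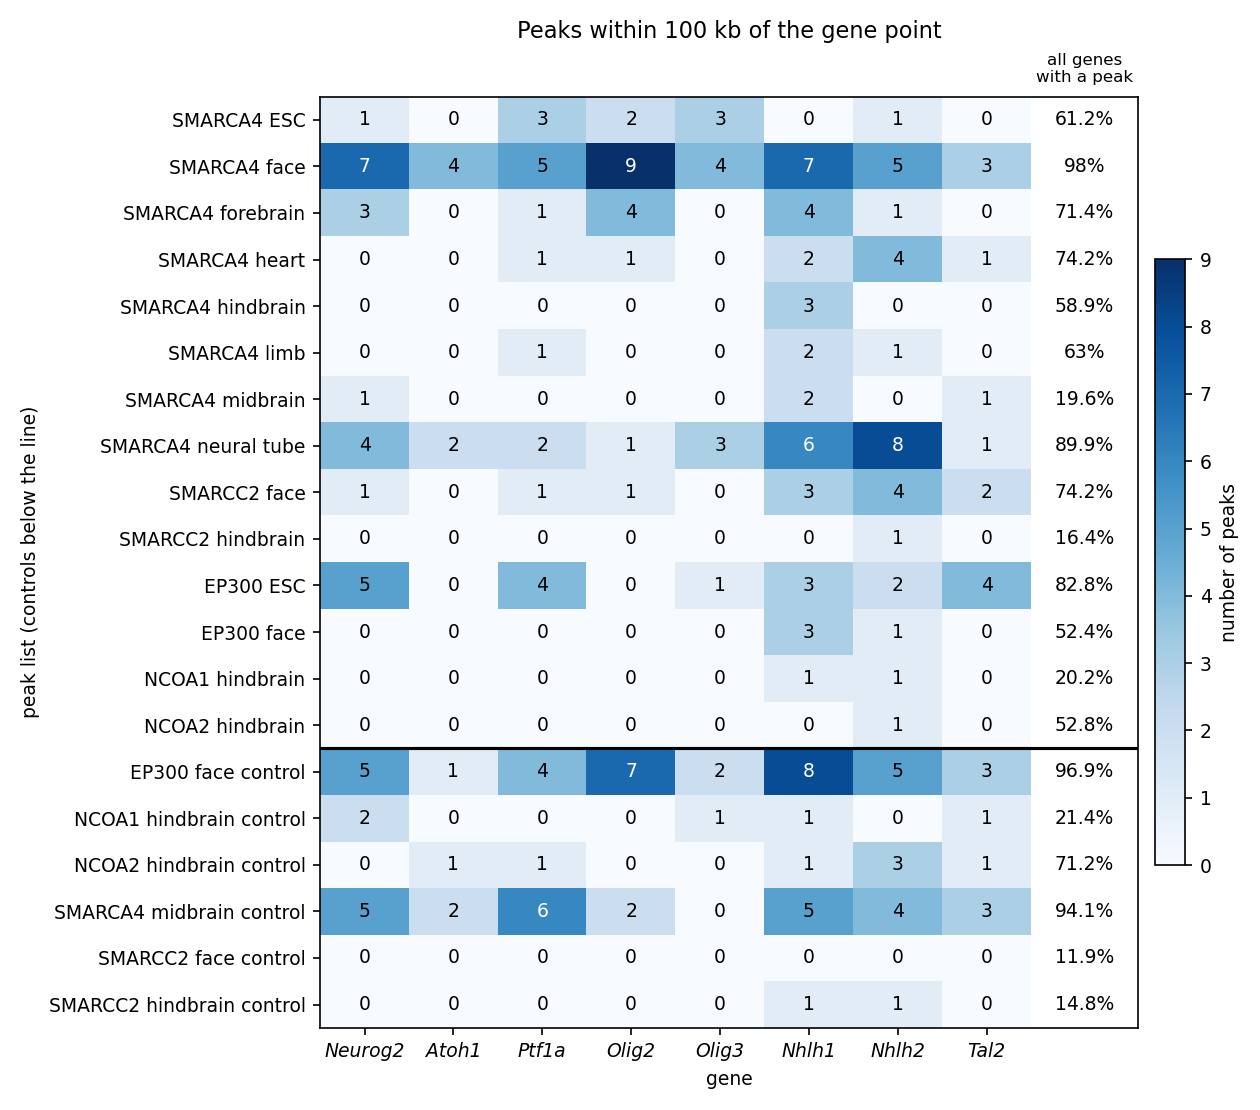
Number of peaks whose midpoint lay within 100 kb of each gene's point (columns) in each FLAG list and, below the line, each control list (rows); the right column gives the percent of all 15687 placed genes with at least 1 peak in the list. Neural tube and face SMARCA4 reach all 8 genes, as they do 89.9% and 98.0% of all genes, and the SMARCA4 hindbrain list reaches Nhlh1 alone.

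The control lists held 76 peaks in the same windows. The EP300 face control was near 8 of 8 genes (96.9% of all genes), with 1 peak at Atoh1 and 8 at Nhlh1 as the extremes. The SMARCA4 midbrain control was near 7 of 8 (94.1%), Olig3 being the gene without one, and had up to 6 peaks, at Ptf1a. Both are long lists, and they account for 62 of the 76 peaks. The NCOA2 control was near 5 of 8 genes (71.2%), the NCOA1 control near 4 of 8 (21.4%), the SMARCC2 hindbrain control near 2 of 8 (14.8%) and the SMARCC2 face control near 0 of 8 (11.9%). Of the 153 FLAG peaks, 86 (56.2%) overlapped a control or input row by at least 1 bp. The share was 22.2% at Olig2 and 9.09% at Olig3, and it was 72.2% at Nhlh1. What these controls hold is not stated in the labels beyond the word input, and the part they share with the FLAG peaks was not tested further.

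Overlapping FLAG peaks were joined, which gave 73 regions near the 8 genes. Of these 28 were held by 2 or more lists, or 38.4% (exact 95% Clopper-Pearson interval 27.2 to 50.5%, counting error only), against 33.7% of all joined regions of the genome. Among the 55 regions more than 1 kb from any placed gene's start, 15 were shared (27.3%), against 21.6% of such regions in the genome. Sharing ran from 0 of 11 regions at Olig3 and 1 of 5 at Atoh1 to 6 of 8 at Nhlh1 and 4 of 5 at Tal2. A control or input row overlapped 29 of the 73 regions (39.7%), against 31.1% of all joined regions of the genome. Away from starts it overlapped 14 of the 55 (25.5%), against 17.6%. When FLAG peaks over a control or input row were left out, 7 of 53 regions were shared, a count for which no genome share is given here.

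The regions held by the most lists belonged mainly to neighbouring genes. A region at -73.9 kb of Ptf1a (negative values lie upstream) was in 8 lists and covered the start of Msrb2, a methionine sulfoxide reductase gene. A region at -85.7 kb of Nhlh2 was also in 8 lists and covered the start of the transporter gene Slc22a15. Near Nhlh1, regions in 7 lists each covered the starts of Wdr42a at -90.6 kb and of Vangl2, a gene of planar cell polarity, at 29.5 kb. The only other region in 7 lists lay just downstream of Nhlh1 and is described with that gene.

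Neurog2, the proneural gene of the dorsal telencephalon and of several neuron types of the spinal cord, lies on mm9 chromosome 3 at 127336062, on which 10 of its 10 peaks agreed. SMARCA4 covered its start in forebrain, from -1.81 to 2.09 kb, and in neural tube, from -1.11 to 1.74 kb, and in face a peak lay at 0.837 to 1.64 kb. The midbrain control also covered the start, with 91 tags from -0.723 to 1.44 kb. Neurog2 was the one gene of the 8 with a forebrain SMARCA4 peak over its start.

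Upstream of Neurog2, neural tube SMARCA4 stood at -8.86 to -6.36 kb and forebrain SMARCA4 at -8.61 to -6.21 kb. Narrower peaks in face and, with 6 tags, of EP300 in ESC lay inside them, as did a midbrain control peak of 16 tags. Midbrain SMARCA4 had its own peak of 30 tags at -5.61 to -4.96 kb, where face had one too. A further cluster lay downstream, free of control peaks. It held forebrain SMARCA4 at 61.3 to 64.1 kb, neural tube SMARCA4 at 61.8 to 64.2 kb, face SMARCA4 at 62.1 to 62.7 kb and an EP300 ESC peak of 5 tags. Neural tube SMARCA4 recurred at 71.6 to 74.8 kb together with SMARCC2 in face, 60 tags at 72.7 to 73.8 kb, and another EP300 ESC peak of 5 tags. The nearest placed start to both was that of mKIAA1527, at 54.5 kb. The farthest shared region, at -79.8 kb, covered the start of Larp7, which codes for a protein of the 7SK particle.

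Atoh1 specifies granule cells of the cerebellum, hair cells and the most dorsal interneurons. Its point on mm9 is 64679150 of chromosome 6, with 7 of 7 peaks in accord, and the closest placed gene, Smarcad1, was 314 kb away. Neural tube SMARCA4 covered the start from -0.949 to 1.15 kb, and a face peak lay within it at 0.066 to 0.503 kb. Control peaks of 39 tags (midbrain), 12 tags (EP300 face) and 7 tags (NCOA2) lay in the same stretch. This was the only region of Atoh1 in 2 lists. The 3 other face peaks, at -40.7, 5.81 and 70.7 kb, and a neural tube peak at -80.9 to -78.4 kb were each in 1 list. Atoh1 was thus marked by SMARCA4 in neural tube and face and had no peak in the 12 other FLAG lists.

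Ptf1a drives inhibitory neuron fates in the cerebellum and dorsal spinal cord and, outside the nervous system, the pancreas. It lies on mm9 chromosome 2 at 19367289, with 6 of 6 peaks in accord, and another placed transcript, AK053418, starts at 1.01 kb. At its start stood neural tube SMARCA4 from -0.638 to 1.41 kb, a face peak at 0.059 to 0.292 kb and an EP300 peak of ESC, with 13 tags, at 0.509 to 0.765 kb. Control peaks covered the start as well, with 62 tags in the midbrain control and 24 in the EP300 face control. Of its 18 FLAG peaks, 8 belonged to the start of Msrb2. SMARCA4 of ESC had peaks of its own at -65.1 kb, with 19 tags, and at -16.4 kb, with 9 tags. A face peak at -15.8 to -13.6 kb was shared with EP300 in ESC (5 tags) and overlapped 2 controls.

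Olig2, needed for motor neurons and oligodendrocytes, lies on mm9 chromosome 16 at 91225794 (6 of 6 peaks), and its paralogue Olig1 follows at 44.2 kb. No FLAG peak covered the Olig2 start. The nearest was neural tube SMARCA4 at 0.307 to 2.21 kb, in that list alone and free of control peaks. Forebrain SMARCA4 held 4 broad peaks, at -86.5 to -81.8 kb, -52.3 to -49.2 kb, -16.1 to -13.1 kb and 77.9 to 79.6 kb. The one at -16.1 kb was in forebrain alone, and the other 3 were shared with narrower face peaks. A region at -55.4 kb was found in 3 other lists, with 35 tags in SMARCA4 heart, 55 tags in SMARCC2 face and a SMARCA4 face peak, and no control peak lay there. Face alone had peaks at -68.7, -4.59 and 6.94 kb and at Olig1 itself. Forebrain and neural tube SMARCA4 shared no region at Olig2.

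Olig3, active in the dorsal progenitors of hindbrain and spinal cord, lies on mm9 chromosome 10 at 19076344 (6 of 6 peaks), and the closest other placed gene, AK169479, lay at -189301 bp. Its 11 FLAG peaks formed 11 regions, each in 1 list. Neural tube SMARCA4 covered the start from -0.393 to 1.56 kb and stood also at -75.1 to -73.8 kb and at 70.2 to 72.8 kb. Of the 6 genes with a FLAG peak over the start, Olig3 was the one where no control peak overlapped it. ESC SMARCA4 had peaks of 6, 16 and 8 tags at -17.0, 47.7 and 57.9 kb, and EP300 in ESC had 6 tags at -75.4 kb. The 4 remaining peaks were of face, at -79.3, -17.7, -3.79 and 85.4 kb.

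Nhlh1 codes for a bHLH protein of newly born neurons that have just left the cell cycle. It lies on the minus strand of mm9 chromosome 1 at 173987682 (8 of 8 peaks), with Ncstn at -25.1 kb, Copa at -25.3 kb and Vangl2 at 29.5 kb. Neural tube SMARCA4 covered the start in a peak from -4.72 to 1.38 kb, and hindbrain SMARCA4 had 22 tags inside it at -4.07 to -3.67 kb. From 2.28 to 10.9 kb ran a chain of peaks held by 7 lists. Its first step, from 2.28 to 6.03 kb, was made of neural tube and forebrain SMARCA4 and SMARCC2 in face (124 tags), with no control peak.

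The second step of that chain was the place held by the most lists that was not the start of another gene. Hindbrain SMARCA4 had 78 tags at 7.85 to 8.89 kb, with an authors' score of 186 that ranked 115 of 5460 peaks. Midbrain SMARCA4 had 51 tags at 7.75 to 8.65 kb, SMARCC2 in face 96 tags at 7.61 to 9.45 kb and EP300 in ESC 6 tags at 8.15 to 8.26 kb. Neural tube SMARCA4 spanned 5.78 to 10.9 kb and forebrain SMARCA4 7.38 to 10.4 kb, and face SMARCA4 lay at 9.01 to 9.44 kb. A control peak of 10 tags, of EP300 face, lay at 9.16 to 9.29 kb and outside the hindbrain, midbrain and EP300 peaks. Lists of hindbrain, midbrain, forebrain and neural tube therefore met at this place together with lists of face and ESC. The SMARCA4 lists of limb and heart had no peak there. The limits given above for the midbrain false discovery rates and the hindbrain tissue field apply here.

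The same SMARCA4 lists of the nervous system, and that of face, met again beyond Vangl2. At 39.9 kb from the Nhlh1 start, midbrain SMARCA4 had 74 tags and a score that ranked 125 of 1513, and hindbrain SMARCA4 45 tags. Forebrain, neural tube and face SMARCA4 overlapped them, and a peak of 10 tags of the SMARCC2 hindbrain control lay inside. The nearest placed start was that of Vangl2, 10426 bp away. At the Vangl2 start itself neural tube was the only nervous-system SMARCA4 list, beside SMARCA4 in limb and face, SMARCC2 and EP300 in face (73 and 107 tags), NCOA1 (20 tags) and EP300 in ESC (6 tags), over 2 controls.

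Nhlh2, a paralogue of Nhlh1 that is also needed in hypothalamic neurons for fertility and body weight, lies on mm9 chromosome 3 at 101814077. Of its 10 peaks 9 agreed on that point. No FLAG peak covered the point, but 5 lists met between 1.02 and 3.27 kb, the span of the neural tube SMARCA4 peak. SMARCC2 in face had 74 tags at 1.41 to 2.82 kb, NCOA1 in hindbrain 14 tags at 1.48 to 1.67 kb and EP300 in ESC 9 tags at 2.53 to 2.74 kb. Face SMARCA4 lay at 1.93 to 2.54 kb, and 3 controls had peaks of 6 to 25 tags in the same stretch.

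Neural tube SMARCA4 had more peaks near Nhlh2 than near any other of the 8 genes. Its peaks at -43.8 to -41.2 kb, 19.6 to 21.3 kb, 43.0 to 44.7 kb and 45.9 to 47.5 kb were in no other FLAG list, over no control and in no histone region. At 12.4 to 16.4 kb it was joined by SMARCC2 in face, with 104 tags, by SMARCA4 in face and by SMARCA4 in heart, with 19 tags. At 53.1 kb neural tube and face SMARCA4 met heart SMARCA4, which had 79 tags. Heart had further peaks of 52 tags at 59.3 kb and of 28 tags at 77.0 kb, 533 bp from the start of Casq2, the calsequestrin of cardiac muscle. Of the 4 heart peaks, 3 thus lay closer to Casq2 than to Nhlh2.

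Tal2, needed for inhibitory neurons of the midbrain, lies on mm9 chromosome 4 at 53792576 (6 of 6 peaks). Its start was covered by face peaks and by no neural tube peak. SMARCC2 in face had 230 tags there, from -1.81 to 1.8 kb, and SMARCA4 in face lay at -0.864 to 0.678 kb. Controls covered the start with 24 tags (EP300 face) and 9 tags (midbrain). Midbrain SMARCA4 had a peak of 17 tags at 17.2 to 17.7 kb. It touched a heart SMARCA4 peak of 30 tags, which in turn touched an EP300 ESC peak of 5 tags, with no control peak near. The other regions in 3 lists lay at the starts of Fcmd, the fukutin gene, and Tmem38b.

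**Figure D2:**
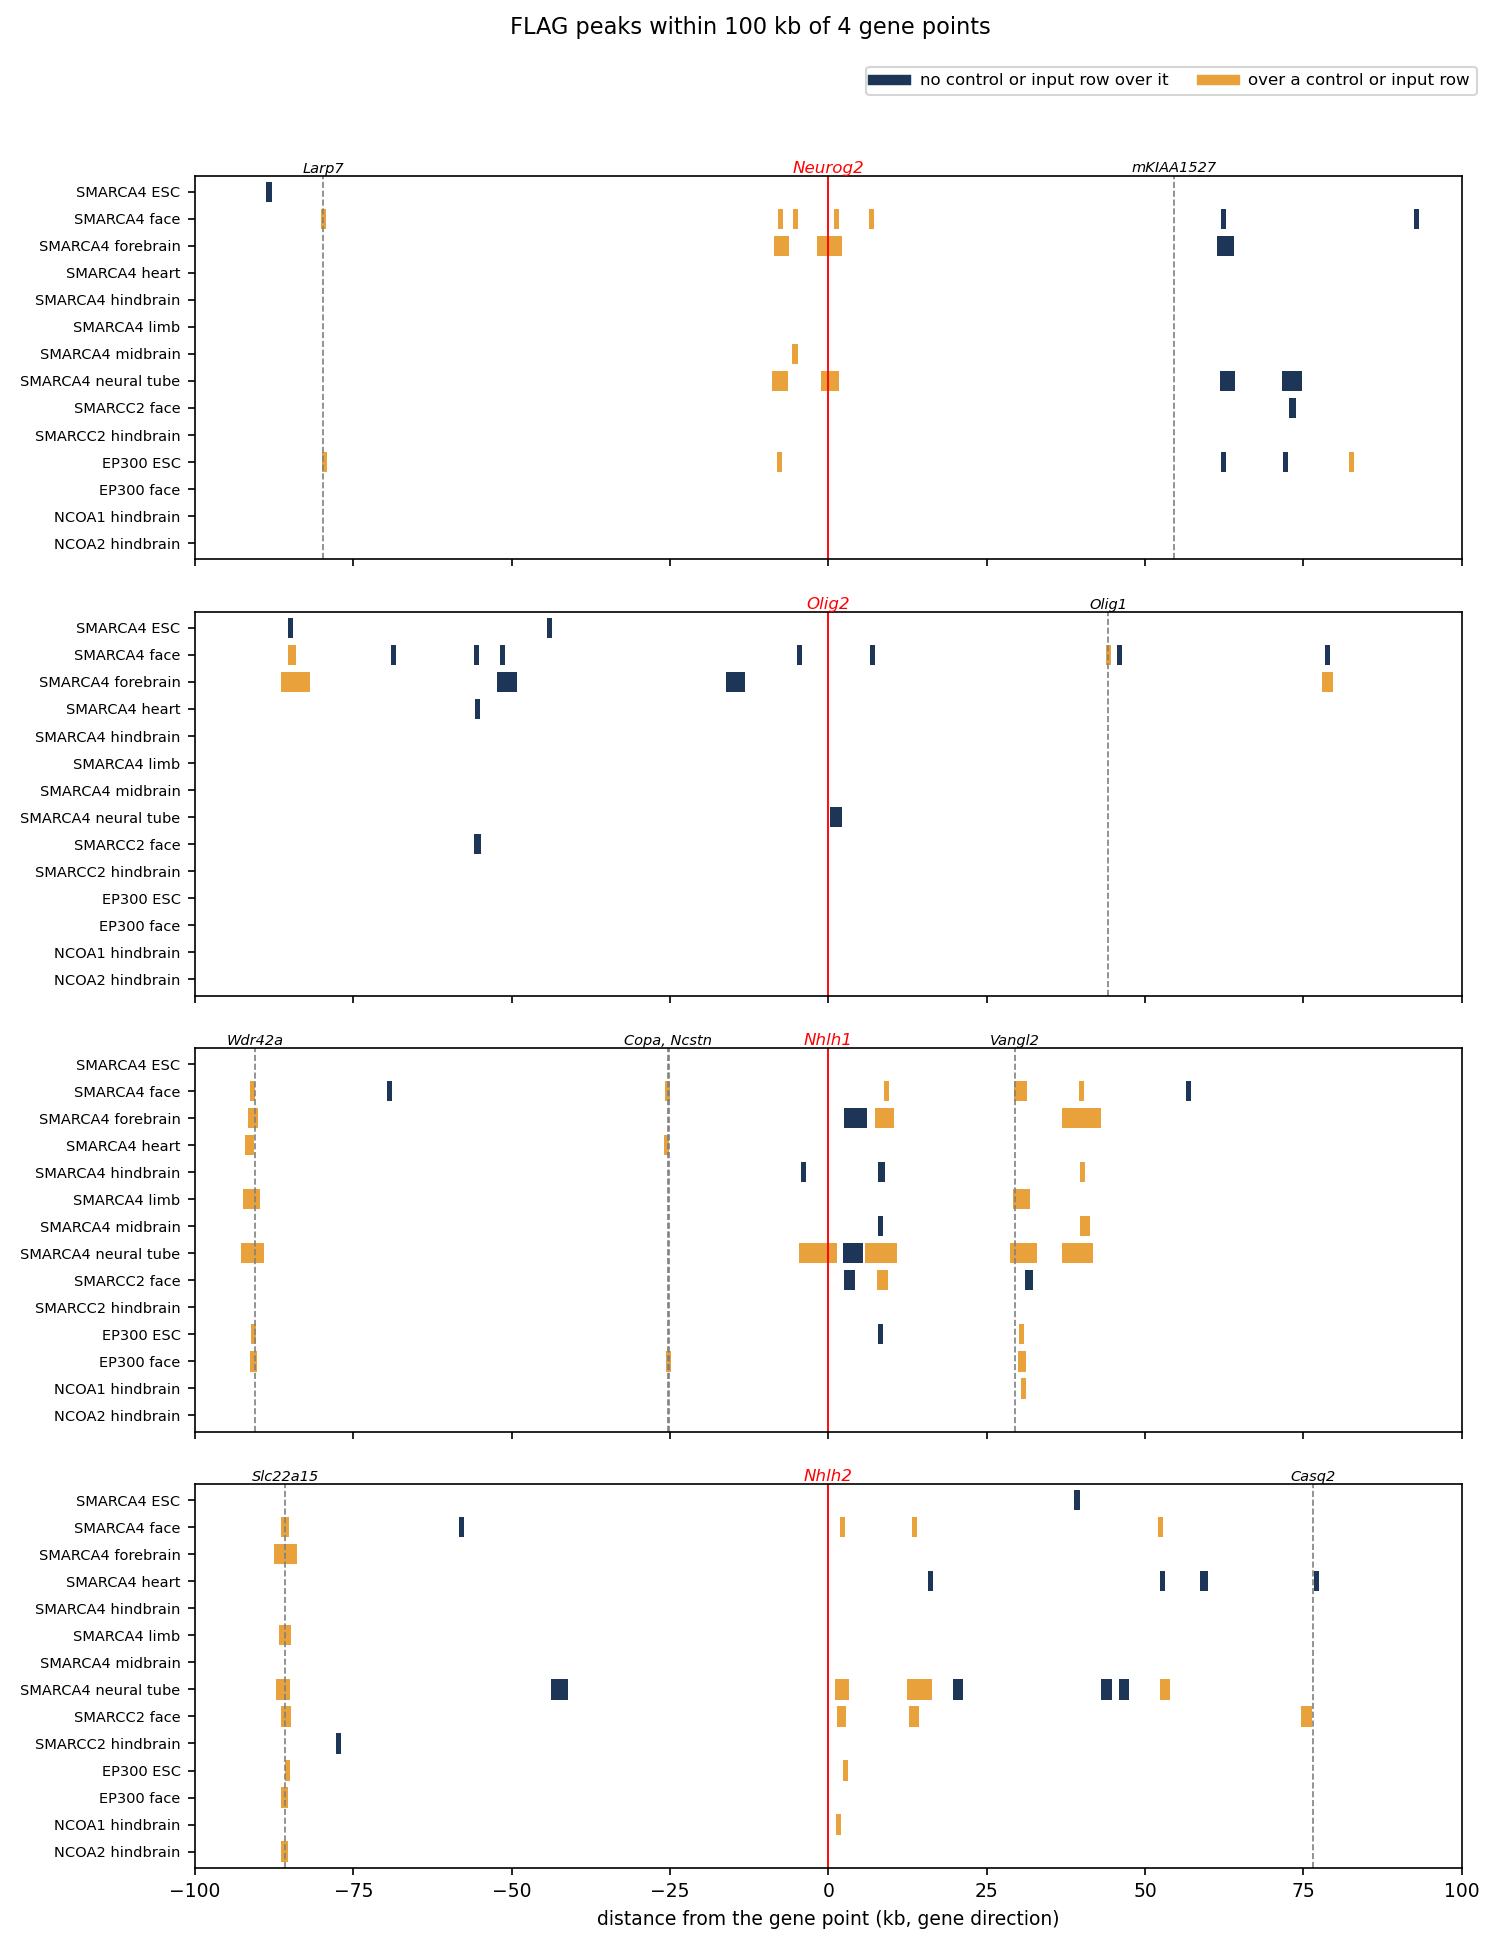
FLAG peaks by list (rows) against distance from the gene point in kb, in the direction of the gene, for Neurog2, Olig2, Nhlh1 and Nhlh2; orange peaks overlap a control or input row, dark ones do not, dashed lines are other placed starts, and peaks under 0.8 kb are drawn 0.8 kb wide. Stacks of many lists stand at Wdr42a, Vangl2 and Slc22a15, and the stack at about 8 kb from Nhlh1 holds the hindbrain and midbrain peaks.

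At the starts, neural tube SMARCA4 covered 5 of the 8 points (Neurog2, Atoh1, Ptf1a, Olig3 and Nhlh1) against 51.5% of all genes. Forebrain SMARCA4 covered 1 point against 28.8%, face SMARCA4 1 point (Tal2) against 45.0%, SMARCC2 in face 1 point (Tal2) against 18.3%, and limb SMARCA4 none against 24.9%. Of the other 9 FLAG lists none covered a point of the 8. These lists covered the point of 0.0574% (SMARCC2 hindbrain) to 18.5% (NCOA2 hindbrain) of all genes, so no difference is read from this. Against all genes, then, the neural tube share was near the background, and the forebrain, face and limb shares were below it. For face this held at the point itself, since 7 of 8 genes had a face SMARCA4 peak within 5 kb, against 78.5% of all genes.

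In the histone lists several shares lay far from those of all genes. In limb, an H3K27me3 region lay over the start of 8 of 8 genes, as it did for 22.7% of all genes. The regions were 23.9 kb wide at Neurog2, 10.7 kb at Atoh1, 18.9 kb at Ptf1a, 37.7 kb at Olig2, 15009 bp at Olig3, 7.42 kb at Nhlh1, 8.66 kb at Nhlh2 and 5.47 kb at Tal2. Their median width was 12.8 kb, against 4.64 kb over the 3564 genes with such a region over the start, and the narrowest, at Tal2, was wider than that median. In limb, then, all 8 starts lay inside regions of the Polycomb mark that were wider than the median.

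No limb H3K27ac region lay over or within 5 kb of any of the 8 starts, where 49.9% of all genes had one over the start and 56.7% within 5 kb. Among genes with limb H3K27me3 over the start, 25.3% had one within 5 kb. The nearest limb H3K27ac region was 24.6 kb away at Nhlh1, 46.2 kb at Tal2, 73.5 kb at Ptf1a, 79.1 kb at Neurog2, 85.2 kb at Nhlh2, 147 kb at Olig2, 235 kb at Olig3 and 313 kb at Atoh1. Within 100 kb, H3K27ac was present near 5 of 8 genes, against 88.8% of all genes.

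In forebrain, H3K27me3 lay over the start of 2 of 8 genes, Olig3 and Nhlh2, against 3.72% of all genes, and within 5 kb of 8 of 8, against 23.3%. At 5 genes the forebrain regions stopped short of the start on both sides. The gap ran from -693 to 1514 bp at Neurog2, from -502 to 1054 bp at Atoh1, from -372 to 941 bp at Ptf1a, from -3342 to 5033 bp at Olig2 and from -1386 to 169 bp at Tal2. Such a gap, with a region on each side within 10 kb, was found at 6.41% of all genes in forebrain and at 22.6% of those with limb H3K27me3 over the start. In limb it was found at none of the 8 and at 1.25% of all genes.

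A dip at the start was a feature of the whole forebrain H3K27me3 list. Of all genes with forebrain H3K27me3 within 5 kb, 16.0% had it over the start, against 71.9% in limb. Of the genes with limb H3K27me3 over the start, 58.9% had forebrain H3K27me3 within 5 kb but not over it, and so had 6 of the 8 genes. The 2 lists were made from different libraries of unknown depth, and the forebrain regions were narrower, with a median width of 990 bp against 2052 bp. Whether these differences or the state of the tissue set the gap was not tested.

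Nhlh1 stood apart in forebrain. A single H3K27me3 region of 381 bp lay within 100 kb, at 3.79 to 4.17 kb, whereas in limb the mark covered 9.16 kb of that window. At Olig2 the mark covered 86.7 kb of the window in limb and 51.8 kb in forebrain, the most of the 8 genes in both tissues. At Neurog2 the covered length was 29.4 kb in limb and 30.4 kb in forebrain, and at Olig3 it was 17.0 and 21.6 kb. At Tal2 it was 6.56 and 4.07 kb, at Nhlh2 14.7 and 6.03 kb, at Ptf1a 31.5 and 26.4 kb and at Atoh1 14.8 and 10.1 kb. H3K27me3 was thus present near all 8 genes in forebrain, with the least at Nhlh1.

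H3K4me3 lay over the start in each of the forebrain gaps. A forebrain H3K4me3 region lay over the start of 7 of 8 genes (69.3% of all genes), and covered -2065 to 2452 bp at Neurog2, -1765 to 1332 bp at Atoh1, -678 to 932 bp at Ptf1a, -4484 to 5080 bp at Olig2 and -870 to 1396 bp at Tal2. At Neurog2, Atoh1 and Olig2 it spanned the whole gap, which at Olig2 took a region 9.56 kb wide. Of all genes with such a gap 81.4% had forebrain H3K4me3 over the start, so the 5 genes were not unusual in this. The exception was Olig3, whose forebrain H3K4me3 regions ended at -982 bp and began again at 1749 bp around a start covered by H3K27me3.

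In limb, H3K4me3 lay over the start of 5 of 8 genes (70.1% of all genes), the same 5 that had a gap in forebrain. Of genes with limb H3K27me3 over the start, 82.6% had it in limb and 81.1% in forebrain. The 3 without were Olig3, with no limb H3K4me3 region within 100 kb, Nhlh1, where it began at 2807 bp, and Nhlh2, where it began at 991 bp. These are the 3 genes with 2 to 4 CG dinucleotides in the promoters printed above. The match was noticed after both were known and rests on 8 genes. It holds for the start itself only. Limb H3K4me3 lay within 1 kb of 6 of 8 genes (72.1% of all genes) and within 5 kb of 7 of 8 (75.8%). The match was not extended to all placed genes, of which 7932 (50.6%) had a promoter in the table, and it was not tested over those 7932.

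Both marks together lay over the start of 5 of 8 genes in limb (18.8% of all genes) and of 1 of 8, Nhlh2, in forebrain (2.79%). Of genes with limb H3K27me3 over the start, as all 8 had, 82.6% had both in limb, so 5 of 8 was not a high share. Within 5 kb of the start both were present in forebrain at 8 of 8 genes, against 20.9% of all genes. Of the 3655 genes with forebrain H3K27me3 within 5 kb, however, 3274 had both. H3K4me1 lay over the start of the same 5 genes (Neurog2, Atoh1, Ptf1a, Olig2 and Tal2) in limb and in forebrain. It did so for 55.3% (limb) and 31.1% (forebrain) of all genes, and for 86.8% and 61.3% of those with limb H3K27me3 over the start. In forebrain the H3K4me1 region was 10.1 kb wide at Neurog2, against 2.97 kb in limb. It reached from -8036 to 2036 bp and thus from the start into the shared SMARCA4 region upstream.

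**Figure D3:**
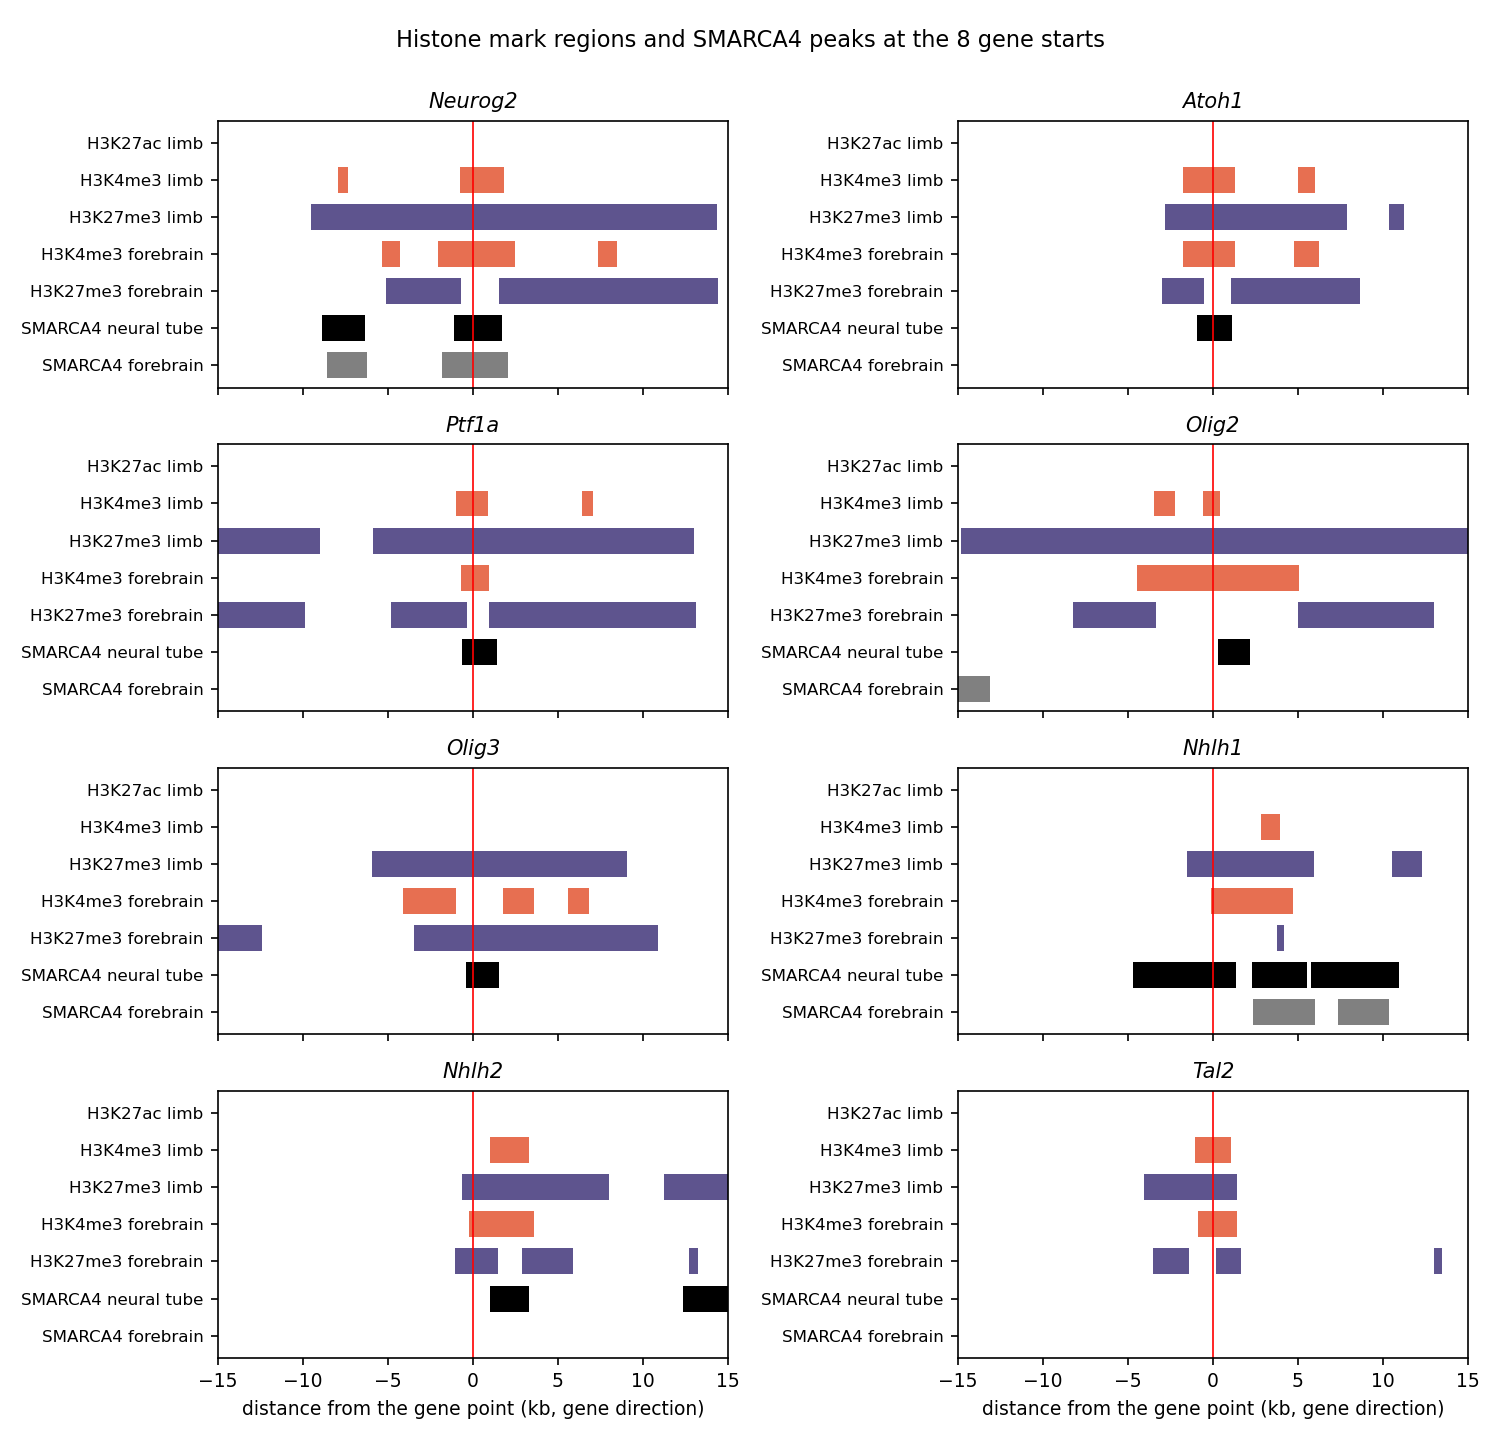
Regions of H3K27ac, H3K4me3 and H3K27me3 in limb and of H3K4me3 and H3K27me3 in forebrain, and SMARCA4 peaks of neural tube and forebrain (rows), against distance from the start in kb in the direction of the gene (red line: the start) for the 8 genes. Limb H3K27me3 crosses all 8 red lines, and forebrain H3K27me3 leaves a gap there at Neurog2, Atoh1, Ptf1a, Olig2 and Tal2.

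**Figure D4:**
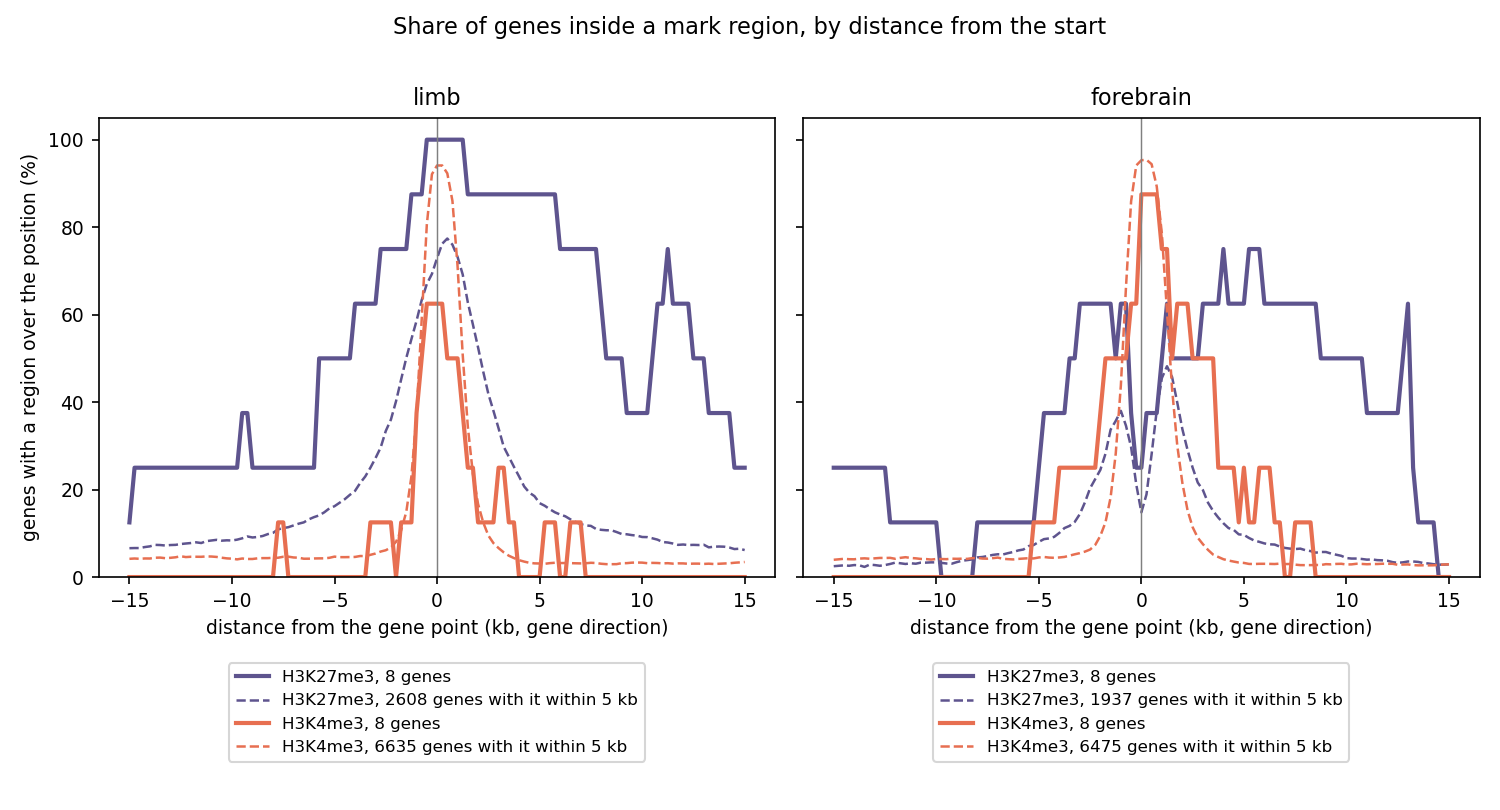
Percent of genes inside a region of H3K27me3 or H3K4me3, in bins of 250 bp around the start, in limb and forebrain; solid lines are the 8 genes and dashed lines all genes of known strand with that mark within 5 kb. At the start itself limb H3K27me3 covers 100% of the 8 genes and 72.9% of 2608 genes, and forebrain H3K27me3 covers 25% of the 8 and 14.8% of 1937 genes.

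Within 100 kb every histone list reached most of the genes, as it did most genes of the genome. H3K27me3 in limb was near 8 of 8 (72.2% of all genes) with 2 to 14 regions, and in forebrain near 8 of 8 (60.0%) with 1 to 17. H3K4me1 was near 8 of 8 in limb (97.5%) with 4 to 15 regions and near 8 of 8 in forebrain (94.5%) with 5 to 16. H3K4me3 was near 7 of 8 in limb (95.2%) and 8 of 8 in forebrain (94.1%). Olig2 had the highest count of both H3K27me3 lists and both H3K4me1 lists.

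Away from starts, a larger share of the FLAG regions near these genes than of the genome's lay in H3K27me3. Of the 55 regions more than 1 kb from any placed start, 27 overlapped limb H3K27me3 (49.1%, against 10.9% of such regions in the genome) and 19 overlapped forebrain H3K27me3 (34.5%, against 5.3%). Forebrain H3K4me1 lay over 30 of them (54.5%, against 30.8%) and limb H3K4me1 over 28 (50.9%, against 47.5%). H3K4me3 lay over 18 in forebrain (32.7%, against 11.6%) and 14 in limb (25.5%, against 15.5%). H3K27ac of limb lay over 2 (3.64%, against 12.4%), both near Nhlh1. The regions of a gene share 1 neighbourhood and often 1 H3K27me3 domain, so they are not independent of each other. The genes also differed, since Olig2 gave the most regions in H3K27me3 in both tissues. In forebrain, Olig3 and Tal2 gave no such region. All of these genes had limb H3K27me3 over the start, while the genome shares cover regions near any gene. Regions near other starts with limb H3K27me3 were not compared.

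Single regions show the mixture. The Neurog2 regions at 62.8 and 73.2 kb overlapped H3K27me3, H3K4me1 and H3K4me3 in both tissues. The neural tube peak of Atoh1 at -79.6 kb overlapped H3K4me1 and H3K4me3 of both tissues and no H3K27me3. The forebrain peak of Olig2 at -14.6 kb overlapped H3K4me1 in both tissues and H3K27me3 in limb alone. The Tal2 region at 17.6 kb overlapped forebrain H3K4me1 and H3K4me3 and, in limb, H3K27me3. Of the 73 regions, 19 overlapped no histone region (26.0%, against 35.8% of all joined regions), 8 of them near Nhlh2 and 5 near Olig3.

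In a list of other, mainly neural bHLH genes, 9 of the 12 that were placed had limb H3K27me3 over the start. In forebrain 0 of 12 had it over the start, and it lay within 5 kb of 9. Of the 11 HES, HEY and ID genes, the antagonists, 7 had it over the start in limb and 1 in forebrain. The 3 E protein genes, partners that most cells express, had it in neither. Of all genes, 22.7% had it over the start in limb, 3.72% over the start in forebrain and 23.3% within 5 kb in forebrain. Limb H3K27ac lay within 1 kb of the start of 1 of 12 other bHLH genes, of 5 of 11 antagonists and of 2 of 3 E protein genes, against 52.9% of all genes. In neural tube SMARCA4 had a peak within 100 kb of 11 of 12, 10 of 11 and 3 of 3 of them, near the share of 89.9% of all genes. Counts of joined FLAG regions had medians of 9.5, 13 and 11 in these lists and 9.0 in the 8 genes.

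Of all the genes listed for comparison, tissue markers included, the most joined FLAG regions stood near Hes1, the Notch effector, and Gata4, a heart regulator, with 23 each, followed by Tcf3 and the face marker Prrx2 with 21 each. None of the listed genes that could be placed had 0. Of the other bHLH genes listed, Atoh7, Bhlhe22, Bhlhe23 and Tal1 had no point, and neither had the markers Hoxd13 and Tfap2b. Neurod4 had the fewest regions of the other bHLH genes listed, 2, and Lyl1 the most, 18.

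Likeness of 2 genes was measured over the 14 FLAG lists as 1 minus the summed absolute differences of their peak counts divided by the sum of those counts. For Atoh1, a gene on another chromosome or more than 1 Mb away, Mrps22, had the same count in all 14 lists (likeness 1.0). The most alike genes of the others were Zfp667 for Olig3 (0.909), BC112410 for Ptf1a (0.919), Camta1 for Nhlh1 (0.901), Trub1 for Nhlh2 (0.893), Chst12 for Neurog2 (0.889), 1700029F12Rik for Tal2 (0.87) and Cdh23 for Olig2 (0.865), the first by name where 5 genes (Ptf1a) or 2 genes (Nhlh1) tied. Within the 8 genes, Atoh1 and Olig3 were closest (0.706), then Neurog2 and Ptf1a (0.7), and Nhlh1 and Nhlh2 reached 0.667. Every one of the 8 had at least 191 other genes more like it than its closest fellow member, so the counts alone do not set them apart as a group.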

How the data were processed

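Per the submitters' processing notes, reads were aligned with BWA to mm9; the peak caller and its settings are not given in the sources used here. The deposited tables give, for each peak of 10 FLAG and 6 control lists, the count of tags, the authors' score, a scaled -log10 p-value (50 or more in each row), the fold enrichment as a ratio, a score of conservation, the closest gene, how far away it lies and, in some lists, the false discovery rate in percent. The other 14 deposited lists give positions and a rank. Fold and conservation were not used in the results. Libraries were not normalized to each other and their depth is unknown, so a list that lacks a peak may lack the depth to show it; intervals cover counting error only.

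A gene's point is the position on which most of its peaks agree (summit plus or minus the deposited distance); 15687 of 18835 symbols could be placed and 319 were tied. Rows were assigned by midpoint within 100 kb, and FLAG rows sharing at least 1 bp were joined. Scripts in Python 3.11.15 with pandas 2.3.3, NumPy 2.4.6, SciPy 1.17.1 and matplotlib 3.10.9 were checked on simulated lists. The members and the lists of other genes were chosen with earlier results of these data known. Named were all 8 members, their peaks nearest the point, farthest in 2 or more lists and in the most lists, the 3 listed genes with the most joined regions (with ties), and the most alike gene of each member. With 1 library per condition no test was possible. Promoters are RefSeq's on GRCm38.p6 and no coordinates were converted between builds.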

Additional observations from a re-analysis of the deposited data

How the results depend on the processing

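Widening or narrowing the window moved the counts near the 8 genes with its size: within 50 kb there were 83 FLAG peaks, 46 control peaks and 166 histone regions, and within 200 kb 268, 131 and 445, against 153, 76 and 280 within 100 kb. Leaving out FLAG peaks over a control or input row left 67 peaks and a share of regions in 2 or more lists of 13.2%, against 38.4%. The first 1000 rows of each list held 21 FLAG peaks, and rows with an authors' score of at least 100 held 23 control peaks. Forebrain H3K27me3 lay over the start of 2 of the 8 genes, within 1 kb of 6 and within 5 kb of 8, while limb H3K27me3 gave 8 in each case. The other alternatives tried moved these totals by less than 1.5 times. For the cut at a score of at least 100 this says little about FLAG peaks. It left 103 FLAG peaks and a share of regions in 2 or more lists of 35.6%. The SMARCA4 lists of face, forebrain, limb and neural tube give no score, so they could not lose rows to it. Single genes moved more. Without the SMARCA4 face list, FLAG peaks went from 6 to 2 at Atoh1, from 18 to 9 at Olig2 and from 11 to 7 at Olig3. At the other 5 genes that setting moved them by less than 1.5 times. Leaving out FLAG peaks over a control or input row moved 6 genes, such as Nhlh1 from 36 to 10 and Nhlh2 from 30 to 11. It left Olig2 (18 to 14) and Olig3 (11 to 10) within 1.5 times. The score cut moved Ptf1a from 18 to 9, Tal2 from 12 to 6 and Neurog2 from 22 to 14. The alternatives include leaving out the SMARCA4 midbrain, SMARCA4 hindbrain or EP300 face list, chosen after seeing the data. No paired analysis was possible because each condition is 1 library, and for the same reason no replicate could be left out. Depth is unknown, and peaks of EP300 in ESC, SMARCC2 in hindbrain and SMARCA4 in ESC had the lowest medians, 7, 8 and 9 tags.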
